A study of Danio rerio with 16 samples.

Results

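A set of genes of the collagen-rich connective tissue of the zebrafish gonad were followed over 16 mRNA-sequencing libraries: serpinh1b (ENSDARG00000019949), col1a1a (ENSDARG00000012405), col1a1b (ENSDARG00000035809), col1a2 (ENSDARG00000020007) and sparc (ENSDARG00000019353). They were taken by identifier from a table of 31953 genes, and all 5 were among the 21683 genes with enough counts to be tested. The question was whether serpinh1b changed alone or together with the matrix genes. The genes were chosen by values measured in these libraries together with their function: serpinh1b was selected on its low level in mutants of the maternal cross against their heterozygous controls, and the others as matrix genes to set beside it. For serpinh1b, values in every contrast that uses a maternal-cross library are therefore descriptions and carry no test.

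Type I collagen is the main fibrous protein of connective tissue. Its chains are made in the endoplasmic reticulum, where they are hydroxylated and wound into a triple helix before secretion. In zebrafish the chains come from col1a1a and col1a1b, which are duplicated copies for the alpha-1 chain, and from col1a2, which encodes the alpha-2 chain. serpinh1b encodes a copy of the chaperone known as Hsp47, which binds procollagen in the endoplasmic reticulum and stabilises its triple helix. sparc encodes osteonectin, a secreted glycoprotein that binds collagen in the extracellular matrix. In a gonad such genes are typical of stromal cells, which lie between the germ cells.

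Each library was made from polyadenylated RNA of a pool of 7 to 9 gonads. The line carried a mutation of the microRNA gene miR-214, made with CRISPR-Cas9 and 2 guide RNAs and bred beyond the F3 generation. All fish also carried the germ-cell reporter transgene Tg(vasa:eGFP), and the strain is labelled mz 06de with breed TUE. The 4 groups of 4 libraries come from reciprocal crosses. Maternal-cross KO fish were homozygous mutants and maternal-cross HET fish heterozygotes, both from a homozygous mother and a heterozygous father. Paternal-cross KO and HET fish had the same genotypes from a heterozygous mother and a homozygous father. The controls were thus heterozygous in both crosses, and no wild-type library was analysed here. The age is 31 days post fertilization in the titles and 27 in another label. The design text calls the 4 libraries of a group biological replicates, but nothing states that pools came from separate clutches, so p-values measure the spread between these pools.

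Library totals were 19.9 to 30.1 M counts (mega), highest in the 4 libraries of paternal-cross HET. Markers of germ cells and oocytes were abundant, as the gonad label implies. The germ-cell gene DDX4 had group means of 1186 to 1215 CPM (counts relative to the library total, scaled by the TMM method), and the summed level of 8 oocyte markers was 13477 to 22725 CPM against 11.5 to 39.0 CPM for 4 spermatogenic markers. The 7 epidermis markers summed to a mean of 1192 CPM in maternal-cross KO and 1508 in maternal-cross HET. In the paternal cross these means were 1145 CPM in KO and 1383 in HET. The part of skin tissue in the collagen values was not tested. The row for MIR214, a precursor that a polyadenylated RNA library samples poorly, held 0 to 9 counts per library. It was at 0, 0, 1 and 4 counts in maternal-cross KO, 3, 4, 9 and 3 in maternal-cross HET, 5, 7, 3 and 4 in paternal-cross KO and 0, 2, 0 and 0 in paternal-cross HET. The labels do not say which bases are missing, so this row does not check the genotypes.

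serpinh1b was high in 1 group of the 4. Its level in the maternal-cross HET libraries was 8.94, 28.4, 18.8 and 17.6 CPM in replicates 1 to 4 (mean 18.4 ± 7.97, SD, n = 4). In the maternal-cross KO libraries it was 2.43, 1.08, 2.09 and 8.14 CPM (3.43 ± 3.19). All 4 HET libraries lay above all 4 KO libraries, although replicate 4 of the KO group came close to replicate 1 of the HET group.

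The paternal-cross libraries were low for serpinh1b in both genotypes. KO had 3.17, 3.06, 2.96 and 4.46 CPM (mean 3.41 ± 0.702), and HET had 3.22, 2.28, 1.64 and 2.68 CPM (mean 2.46 ± 0.668). The maternal-cross KO mean therefore lay beside both paternal-cross means, within the spread of the libraries, and the maternal-cross HET group stood apart from the other 12 libraries. These levels rest on 26 to 668 reads per library. In bulk tissue, fewer cells of a type and less RNA per cell cannot be told apart, which holds for every level given here.

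On the log2 scale serpinh1b was -2.42 (SE 0.46) in maternal-cross KO minus HET and 2.91 (SE 0.47) in maternal-cross minus paternal-cross HET. The difference between the KO effects of both crosses was -2.89 (SE 0.65), and maternal-cross minus paternal-cross KO was 0.01 (SE 0.46). Without replicate 4 of the maternal-cross KO group, the library closest to the HET range, the maternal-cross difference was -3.31. The share of tested genes whose KO and HET libraries did not overlap in the maternal cross was 3.92%, and for maternal-cross against paternal-cross HET it was 10.9%. For the paternal cross, whose libraries the choice of the gene did not use, KO minus HET was 0.47 (SE 0.47) with an adjusted p of 0.462 by edgeR's quasi-likelihood test. The interval of that difference ran from -0.44 to 1.39, which includes rises of more than 2-fold. The fit shares 1 estimate of spread over all 16 libraries, so the maternal-cross libraries enter this SE and p. The SD of log2 CPM was 1.18 and 0.69 in maternal-cross KO and HET, and 0.27 and 0.40 in paternal-cross KO and HET. Under the alternative fits and without single libraries, the adjusted p by edgeR or DESeq2 was 0.128 to 0.709.

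The maternal-cross HET group also differed in its pools. Every one of its 4 libraries came from 7 gonads, against 8 or 9 in the other 12, so pool size and group cannot be told apart there. The summed level of 7 skeletal muscle markers was 870, 279, 1442 and 141 CPM in maternal-cross HET replicates 1 to 4, against 95.2 to 442 CPM elsewhere. In the same 4 maternal-cross HET libraries serpinh1b was at 8.94, 28.4, 18.8 and 17.6 CPM. In maternal-cross KO, replicate 4 had the highest serpinh1b level and also the highest sum of 6 liver markers, 174 CPM against 8.13 to 34.3 CPM in the other 15 libraries. The part of muscle or liver tissue in the serpinh1b values was not tested.

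**Figure D1:**
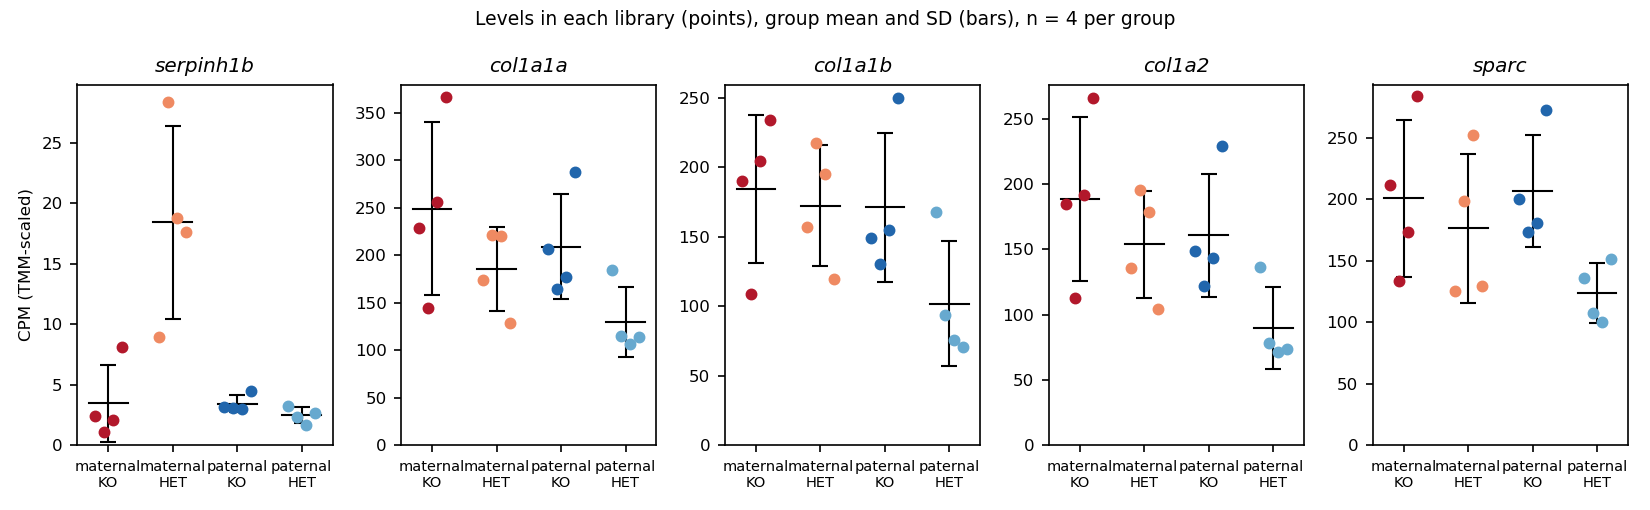
CPM of serpinh1b, col1a1a, col1a1b, col1a2 and sparc in each of the 16 libraries (points, replicates 1 to 4 from left to right), with group mean and SD (lines and bars, n = 4) on separate axes that start at 0. serpinh1b is high in the 4 maternal-cross HET libraries, 8.94 to 28.4 CPM, while the collagen I genes and sparc are lowest on average in paternal-cross HET.

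The collagen I chains were ordered otherwise. col1a1a stood at 229, 145, 256 and 366 CPM in maternal-cross KO, and at 174, 221, 220 and 128 CPM in maternal-cross HET. It stood at 207, 164, 177 and 288 CPM in paternal-cross KO, and at 185, 115, 106 and 113 CPM in paternal-cross HET. The highest group mean was that of maternal-cross KO, 249 ± 91.4 CPM, and the lowest that of paternal-cross HET, 130 ± 36.8 CPM, with 186 ± 44.2 in maternal-cross HET and 209 ± 55.3 in paternal-cross KO (SD, n = 4). The maternal-cross groups overlapped, and so did the paternal-cross groups, where replicate 1 of HET lay above replicates 2 and 3 of KO.

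col1a1b, the second alpha-1 copy, had 190, 109, 205 and 234 CPM in maternal-cross KO and 157, 218, 195 and 119 CPM in maternal-cross HET. Paternal-cross libraries had 149, 131, 155 and 250 CPM in KO and 168, 93.5, 75.4 and 70.7 CPM in HET. The means were 184 ± 53.6, 172 ± 43.4, 171 ± 53.5 and 102 ± 45.1 CPM in that order, so only paternal-cross HET stood lower.

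col1a2, the alpha-2 chain, had 184, 112, 192 and 266 CPM in maternal-cross KO and 136, 196, 179 and 105 CPM in maternal-cross HET. Paternal-cross libraries had 149, 122, 143 and 229 CPM in KO and 137, 77.9, 71.2 and 73.4 CPM in HET. The means were 189 ± 62.8, 154 ± 41.2, 161 ± 47.1 and 89.8 ± 31.3 CPM in that order. Replicate 1 was the only paternal-cross HET library inside the KO range.

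sparc had 211, 133, 173 and 284 CPM in maternal-cross KO and 125, 198, 252 and 129 CPM in maternal-cross HET. Paternal-cross libraries had 200, 173, 180 and 272 CPM in KO and 136, 107, 99.9 and 151 CPM in HET. The means were 200 ± 64.1, 176 ± 60.8, 207 ± 45.4 and 124 ± 24.2 CPM in that order. All 4 paternal-cross KO libraries lay above all 4 HET libraries, which was the case, in either direction, for 26.9% of the genes tested.

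In the maternal cross, none of the 4 matrix genes passed the threshold of an adjusted p under 0.05 in KO minus HET, by edgeR's quasi-likelihood test or by DESeq2, and 0 of 4 had an unadjusted p under 0.05. Among all 21683 genes tested, 0.198% passed by edgeR, and 1931 had an unadjusted p under 0.05. The log2 fold changes were 0.42 (SE 0.26) for col1a1a, 0.10 (0.28) for col1a1b, 0.29 (0.27) for col1a2 and 0.19 (0.24) for sparc, with edgeR adjusted p of 0.689 to 0.968. Their intervals ran from between -0.46 and -0.08 up to between 0.65 and 0.92, so falls beyond -0.46 lay outside all 4. The -2.42 of serpinh1b is a value it was chosen on, so it sets no benchmark for them. In the libraries on which serpinh1b was chosen for its low KO level, the collagen I chains and sparc showed no detected change.

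In the paternal cross, col1a2 and sparc rose in KO. The log2 fold changes were 0.84 (SE 0.27, edgeR adjusted p = 0.0361) for col1a2 and 0.74 (SE 0.24, adjusted p = 0.0384) for sparc. col1a1a was at 0.69 (SE 0.26, adjusted p = 0.0605) and col1a1b at 0.75 (SE 0.29, adjusted p = 0.0654), both short of the threshold. This makes 2 of 4 matrix genes called, in a comparison in which 23.2% of all genes tested were called and 14.1% were called higher. All 4 had an unadjusted p under 0.05 by edgeR, as did 8623 of the 21683 genes tested. DESeq2 called 3, adding col1a1a (adjusted p = 0.0329), and its count over all genes is not given here.

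The paternal-cross calls depended on single libraries. col1a2 was no longer called without KO replicate 1 (edgeR adjusted p = 0.0568) or 4 (0.143), or without HET replicate 2 (0.0854), 3 (0.109) or 4 (0.0916). sparc was no longer called without KO replicate 1 (0.0646) or 4 (0.139), or without HET replicate 2 (0.0912) or 3 (0.115). Over all genes the 5034 calls fell to 3259 and 1026 without KO replicates 1 and 4, and to 3084, 1286 and 2728 without HET replicates 2, 3 and 4. Without HET replicate 1, which had the highest collagen levels of its group, all 4 matrix genes were called and col1a2 was at 1.11, with 5980 calls over all genes.

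Between crosses, the fitted log2 differences of the 4 matrix genes in maternal-cross minus paternal-cross HET were 0.51 to 0.78, with edgeR adjusted p of 0.0971 for col1a2, 0.117 for col1a1b, 0.192 for sparc and 0.211 for col1a1a. None passed, against 3.92% of all genes tested, and DESeq2 also called 0 of 4. An unadjusted p under 0.05 by edgeR was found for 3 of 4, and for 5611 of the 21683 genes tested. Between the KO groups the differences were -0.04 to 0.25, with 0 of 4 called by either tool, 0 of 4 at an unadjusted p under 0.05, and 1.59% of all genes called. The difference between the KO effects (maternal minus paternal, the interaction) was -0.65 to -0.26 for the 4 matrix genes. Again 0 of 4 were called by edgeR or DESeq2 and 0 had an unadjusted p under 0.05, against 0.189% of all genes called by edgeR. The comparison of HET groups shares its libraries with both KO comparisons, so these values are not independent of each other.

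**Figure D2:**
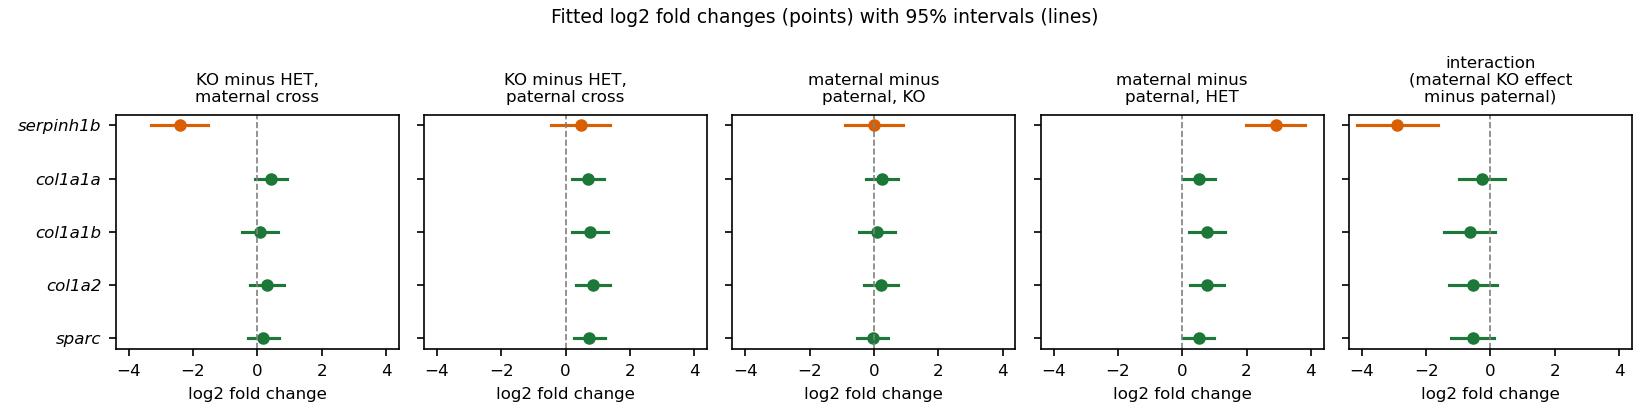
Fitted log2 fold changes (points, x axis) of the 5 genes in 5 comparisons, with lines for the interval of 1.96 SE on each side. serpinh1b is far from 0 where maternal-cross HET libraries enter (-2.42, 2.91 and -2.89), and near 0 between the KO groups (0.01); the other 4 genes stay between -0.65 and 0.84.

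The amount of serpinh1b relative to collagen I was compared within each library, which removes library size. Per 1000 reads of col1a1a, col1a1b and col1a2 together, serpinh1b gave 19.1, 44.8, 31.6 and 49.9 reads in maternal-cross HET. It gave 4.03, 2.95, 3.20 and 9.40 in maternal-cross KO. In the paternal cross the ratio was 6.28, 7.33, 6.23 and 5.81 in KO, and 6.59, 7.96, 6.48 and 10.4 in HET. Every maternal-cross HET ratio was above all 12 others. Because serpinh1b was chosen on its low maternal-cross KO level against HET, this separation in part restates the choice and carries no test. The paternal-cross groups overlapped in this ratio, while the mean collagen I sums were 541 ± 155 CPM (KO) and 322 ± 113 CPM (HET; n = 4, SD). Maternal-cross HET replicate 4 combined the lowest collagen I sum of its group, 352 CPM, with its highest ratio.

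**Figure D3:**
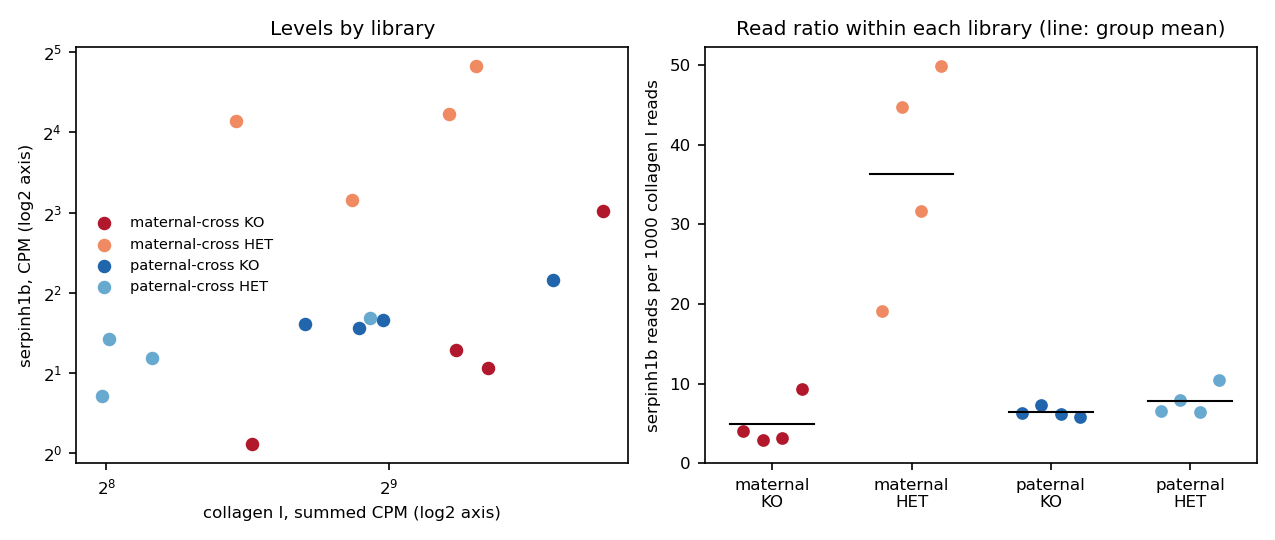
Left, serpinh1b against the summed CPM of col1a1a, col1a1b and col1a2 in each of the 16 libraries, both on log2 axes; right, serpinh1b reads per 1000 collagen I reads by group, with the group mean as a line. The 4 maternal-cross HET libraries have ratios of 19.1 to 49.9, and the other 12 have 2.95 to 10.4. serpinh1b was chosen on maternal-cross libraries, so these ratios are descriptions.

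Of the 3 collagen chains, col1a2 varied least in its share of the collagen I reads. The share of col1a2 was 27.2% to 30.8% over the 16 libraries, that of col1a1a 34.8% to 44.1% and that of col1a1b 27.0% to 34.3%. The 4 paternal-cross HET libraries had the lowest col1a2 shares, 27.2% to 28.5%, against 29.1% to 30.8% in the other 12. The sum of the chains ranged from 253 to 866 CPM, which is 0.0230% to 0.0924% of all counts. sparc gave 266 to 588 reads per 1000 collagen I reads, and its highest ratio was in paternal-cross HET replicate 4, and the 4 groups overlapped.

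Across all 16 libraries the collagen chains moved together in log2 CPM. Pearson's r was 0.98 for col1a1a with col1a2 (Spearman's rho 0.99), 0.98 for col1a1b with col1a2 (rho 0.96) and 0.94 for col1a1a with col1a1b (rho 0.96), each with a permutation p of 3.333e-05 adjusted over the 10 pairs of the 5 genes, from the smallest p that the permutations can give. sparc followed them with r of 0.78 to 0.87 (rho 0.76 to 0.87; adjusted permutation p of 5e-05 to 0.0009667 for r). Without the 2 libraries farthest from the median on the first gene, these r were 0.95 to 0.98 among the chains and 0.79 to 0.89 with sparc. As deviations from group means, which leave out the differences between groups, the r were 0.94 to 0.99 and 0.66 to 0.80. The permutations exchanged libraries across groups, so their p include differences between groups. No p was computed for the deviations.

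For serpinh1b and the matrix genes the correlation is a description with no test, because 4 of its libraries are the maternal-cross KO ones on which serpinh1b was chosen. It was taken over the 12 libraries outside maternal-cross HET, the group that stood apart in serpinh1b. There r was 0.68 with col1a1a, 0.60 with col1a1b, 0.62 with col1a2 and 0.74 with sparc, and Spearman's rho was 0.61, 0.57, 0.59 and 0.68. Without the 2 libraries farthest from the median of serpinh1b, r was 0.54, 0.55 and 0.55 with the collagen chains and 0.72 with sparc. As deviations from group means over the same 12 libraries r was 0.85, 0.67, 0.80 and 0.89. serpinh1b deviated most in maternal-cross KO replicates 2 and 4, by -1.21 and 1.61, against -0.52 to 0.42 in the others. The r of deviations were not computed without these 2 libraries, so how far they rest on them was not tested.

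The spread within groups was wide. The within-group SD of log2 CPM was 0.72 for serpinh1b, larger than in 96.8% of the genes tested, and 0.39 to 0.47 for the matrix genes, against a median of 0.24 over all genes. The first axis of variation within groups, computed over all genes tested including these, held 31.8% of the within-group variance. Deviations of sparc had r of 0.95 with the score of a library on that axis (n = 16). For col1a1a r was 0.78, for col1a2 0.77, for serpinh1b 0.70 and for col1a1b 0.69. The share of tested genes with a lower r was 99.56% for sparc and 81.95% to 88.54% for the others. Many genes outside this set therefore followed the axis as closely as the collagen chains and serpinh1b.

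Markers of other gonadal cells moved in the paternal cross with the matrix genes. In KO minus HET, 6 of 6 leukocyte markers, 4 of 4 endothelial, 5 of 9 supporting-cell, 4 of 7 smooth muscle and pericyte and 3 of 6 tested stromal markers were higher by edgeR's quasi-likelihood test, and 6 of 8 oocyte markers were lower, where 23.2% of all genes tested were called and 14.1% were called higher. Among steroidogenic markers, 4 of 6 were higher and 1 lower. Their summed level did not differ, at 362 to 453 CPM in KO and 373 to 455 CPM in HET. The summed stromal level, without the collagen genes, was 158 to 222 CPM in KO and 103 to 127 CPM in HET; in the maternal cross it was 127 to 214 CPM in KO and 127 to 206 CPM in HET. The stromal genes DCN, a small matrix proteoglycan (0.86, adjusted p = 0.015), and NR2F2, a nuclear receptor (0.90, adjusted p = 0.006), were among those higher, and PDGFRB was at 0 in all libraries. Leukocyte markers summed to 394 to 718 CPM in KO and 189 to 316 CPM in HET, and oocyte markers to 13773 to 17473 and 16830 to 22725 CPM. The part of these cells in the rise of col1a2 and sparc was not tested.

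The enzymes and partners that process collagen were examined as a list of 44 tested genes. For the genes of this and the other lists, values in parentheses or after a name are log2 fold changes, followed by their edgeR adjusted p. List counts at an unadjusted p under 0.05 are by edgeR. Over the 21683 genes tested, 1931 reached it in maternal-cross KO minus HET and 5611 between HET groups. No count over all genes is given for DESeq2. In maternal-cross KO minus HET 1 of them was called by edgeR, against 0.198% of all genes: loxl2a, a lysyl oxidase that crosslinks collagen, was higher (1.19, SE 0.21, adjusted p = 0.0216; 56.3 ± 11.8 CPM in KO and 24.6 ± 7.36 in HET); no processing gene was called without KO replicate 1, 3 or 4 or HET replicate 1 or 4. Over all genes the 43 calls became 19 to 22 without any 1 of those libraries. The list had a median of -0.06, beside -0.0021 over all genes tested. The abundant P4HB, the beta subunit of prolyl 4-hydroxylase, was at -0.24 (adjusted p = 0.522), and PPIB, a prolyl isomerase of the same compartment, was at -0.06 (0.877). The loxl2a interaction was also called, at 1.65 (SE 0.29, adjusted p = 0.0377), where 0.189% of all genes were called. No processing gene had a called interaction without maternal-cross KO replicate 1 or 3, maternal-cross HET replicate 2, paternal-cross KO replicate 1 or 2 or paternal-cross HET replicate 2 or 3. Over all genes the 41 interaction calls became 14 to 36 in these fits. loxl2a stood highest in maternal-cross KO, with means of 20.9 and 28.7 CPM in paternal-cross KO and HET, whereas serpinh1b stood highest in maternal-cross HET. Its opposite sign to serpinh1b in the maternal cross is a description, because serpinh1b was chosen on that difference.

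In paternal-cross KO minus HET, 17 of the 44 processing genes were higher and 2 lower, against 23.2% of all genes called in either direction; the median was 0.42 beside 0.02. pcolcea, which enhances the removal of the collagen propeptide, was at 0.87 (SE 0.23, adjusted p = 0.0177). The 2 genes with the symbol BMP1, the protease that removes this propeptide, went apart, ENSDARG00000028071 at 0.38 (adjusted p = 0.0137) and ENSDARG00000028053 at -0.28 (0.0264). The count of 19 fell to 2 without HET replicate 3, 3 without KO replicate 4, 11 without HET replicate 4 and 12 without HET replicate 2. Over all genes the count fell as well, from 5034 to 1286, 1026, 2728 and 3084 without the same libraries.

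Between the HET groups 13 of the 44 were higher in the maternal cross and none lower, where 2.74% of all genes were called higher; the median was 0.34 beside 0.01. They included PLOD3, a lysyl hydroxylase of collagen (0.56, SE 0.09, adjusted p = 0.00522), pcolcea (1.01, 0.0265) and SEC24D, a coat protein of the vesicles that carry procollagen (0.55, 0.0224). P4HB and PPIB did not pass (0.04 and 0.10). Only 4 were called without replicate 2 or 3 of either HET group, and 8 without paternal-cross HET replicate 4; over all genes the 851 calls became 146 to 181 without one of those replicates 2 and 3. PLOD3 was also higher in maternal-cross than paternal-cross KO (0.45, SE 0.09, adjusted p = 0.0226), as was loxl2a (1.43, 0.00346), the 2 processing genes called there.

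The second gene with the Hsp47 symbol showed a smaller version of the HET difference. It is ENSDARG00000075954, which the names table calls SERPINH1, the symbol it also gives serpinh1b. Its level was 28.1, 48.4, 45.0 and 30.4 CPM in maternal-cross HET and 27.5, 20.1, 28.4 and 32.3 CPM in maternal-cross KO. In the paternal cross it was 23.9, 19.0, 20.4 and 30.1 CPM in KO and 18.5, 13.7, 13.7 and 17.8 CPM in HET. The maternal-cross groups overlapped. The paternal-cross groups did not, which was the case, in either direction, for 26.9% of the genes tested. All 4 maternal-cross HET libraries lay above all 4 paternal-cross HET libraries, and 10.9% of the genes tested did not overlap there in either direction. The differences were 1.25 between the HET groups (SE 0.19, edgeR adjusted p = 0.00428), 0.55 in paternal-cross KO minus HET (0.19, 0.0489), -0.49 in maternal-cross KO minus HET (adjusted p = 0.438) and -1.04 for the interaction (0.101). Of the reads of both genes, serpinh1b held 24.1% to 37.0% in maternal-cross HET, 5.09% to 20.1% in maternal-cross KO, 11.7% to 13.8% in paternal-cross KO and 10.7% to 14.9% in paternal-cross HET. How reads that match both copies were assigned is not given in the sources used here.

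Other stromal matrix genes were called in the paternal cross and between the HET groups. Of 43 tested, 15 were higher and 1 lower in paternal-cross KO (median 0.54), where 23.2% of all genes were called and 14.1% were called higher. Among them were 1 of the 2 genes with the symbol FN1, fibronectin (ENSDARG00000006526; 1.23, SE 0.30, edgeR adjusted p = 0.0133), COL6A3 and col6a1, chains of collagen VI (0.88, 0.00914; 0.90, 0.0115), and POSTN, periostin (0.90, 0.0114). The second FN1 gene, ENSDARG00000019815, did not pass (0.20, 0.107). The count of 16 fell to 5 without KO replicate 4 and 10 without HET replicate 3, where the 5034 calls over all genes fell to 1026 and 1286. In maternal-cross KO minus HET none was called by edgeR, 3 had an unadjusted p under 0.05 and DESeq2 called 1; the median was 0.07. Between HET groups 7 were higher in the maternal cross and none lower (median 0.55), where 2.74% of all genes were called higher, including POSTN (0.93, 0.0239), COL5A2, a chain of collagen V (1.00, 0.0205), COL6A3 (0.76, 0.0345) and COL6A2 (0.70, 0.0419). That count was 0 without replicate 2 or 3 of either HET group or paternal-cross HET replicate 4, and 4 without paternal-cross KO replicate 1. It was 12 and 16 without maternal-cross HET replicates 1 and 4. Over all genes the 851 calls became 146 to 181 without a replicate 2 or 3 of a HET group. Without the other 4 libraries they were 402, 579, 1472 and 1991, in the same order.

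Among relatives of sparc and basement membrane genes, 23 were tested. In paternal-cross KO 13 were higher and none lower (median 0.58), where 23.2% of all genes were called and 14.1% were called higher, and the other 10 did not pass. The genes higher included the laminin chains LAMB1 (0.89, edgeR adjusted p = 0.0109), LAMA5 (0.57, 0.0205) and lamc1 (0.45, 0.0148) and the collagen IV chain COL4A1 (0.70, 0.0139). The count was 6 without KO replicate 4 and 8 without HET replicate 3, where the 5034 calls over all genes fell to 1026 and 1286. In the maternal cross none was called by edgeR or DESeq2 and 3 had an unadjusted p under 0.05 (median 0.15). Between HET groups 2 of 23 were called, both higher in the maternal cross, beside 3.92% of all genes. These were lama4 (0.81, 0.03) and SPOCK3, a relative of sparc (0.99, 0.0418). As each library was left out the list count ranged from 0 to 6, and the count over all genes from 146 to 1991.

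TGF-beta signalling, a pathway known to induce collagen and SPARC in mammals, was called for 11 of 16 genes in paternal-cross KO, with 10 higher and 1 lower (median 0.74), where 23.2% of all genes were called and 14.1% were called higher. The ligand TGFB3 was at 0.51 (edgeR adjusted p = 0.0119), the latent-complex protein LTBP1 at 0.82 (0.0144), the induced matrix protein TGFBI at 0.77 (0.0152) and the signal transducer SMAD2 at -0.37 (0.0354). Of the 2 genes with the symbol of the receptor TGFBR2, ENSDARG00000034541 was at -0.0045 (0.977). The count was 3 without KO replicate 4 or HET replicate 3 and 7 without HET replicate 2. In these fits the 5034 calls over all genes fell to 1026, 1286 and 3084. In maternal-cross KO minus HET edgeR called none and DESeq2 called 1 (median 0.20). An unadjusted p under 0.05 by edgeR was found for 4, beside 1931 of the 21683 genes tested. Between HET groups edgeR called none and DESeq2 called 4. An unadjusted p under 0.05 by edgeR was found for 8, beside 5611 of the 21683 genes tested. Without a DESeq2 count over all genes, its counts here cannot be set against a share.

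Heat shock and endoplasmic reticulum stress genes were examined because Hsp47 is itself induced by heat shock in vertebrates. The list of 29 heat shock genes holds mostly cytosolic proteins, and also the mitochondrial HSPD1, HSPE1 and HSPA9. Of these 29, edgeR and DESeq2 called none in maternal-cross KO minus HET, and 2 had an unadjusted p under 0.05 (median -0.08). HSPA8 (ENSDARG00000068992), the constitutive Hsp70 partner with the most reads, was at -0.15 (adjusted p = 0.619), and HSP90AB1 at -0.13 (0.686). Between HET groups 2 were higher in the maternal cross, the small heat shock protein HSPB8 (1.52, adjusted p = 0.0241) and hsp90aa1.1, an Hsp90 of zebrafish muscle (1.31, 0.0116). That is 6.90% of the list beside 3.92% of all genes called, and 1 was called without replicate 2 or 3 of either HET group and 3 without maternal-cross HET replicate 4. Over all genes the 851 calls became 146 to 181 and 1991 in these fits. The skeletal muscle markers given above were high in 2 of the 4 maternal-cross HET libraries, and their part in this was not tested. In paternal-cross KO 3 were higher and 3 lower (median -0.08), which is 20.7% of the list beside 23.2% of all genes called, and so not a result about heat shock genes. The count of 6 was 1 without HET replicate 2 or 3, 2 without HET replicate 4 or KO replicate 2 or 4, and up to 9 without other libraries. The lower ones were the mitochondrial chaperonin HSPD1 (-0.27, 0.0269), dnaja1 (-0.35, 0.0315) and CHORDC1 (-0.53, 0.0459). Among the higher ones was another gene with the symbol HSPA8, ENSDARG00000037403 (0.39, 0.0305).

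Of 26 endoplasmic reticulum chaperones and unfolded protein response genes, edgeR and DESeq2 called none in maternal-cross KO minus HET, and 3 had an unadjusted p under 0.05 (median -0.11). HSPA5, the chaperone BiP, was at -0.27 (adjusted p = 0.549), and HSP90B1 at -0.15 (0.814). Between HET groups 4 of 26 were higher in the maternal cross, where 2.74% of all genes were called higher, namely CALR and calr3b, both calreticulins (0.38, 0.0307; 0.79, 0.00749), and the co-chaperones dnajc3b (0.55, 0.01) and DNAJB9 (1.26, 0.0159). The count was 2 without maternal-cross HET replicate 2 and 6 without maternal-cross HET replicate 4, where the 851 calls over all genes became 175 and 1991. HSPA5 was at -0.09 there (0.672). In paternal-cross KO 2 were higher and 4 lower (median -0.15), which is 23.1% of the list beside 23.2% of all genes called, and so not a result about these genes. No gene of the list was called there without KO replicate 4 or HET replicate 3, 2 were without HET replicate 4 and 3 without KO replicate 2 or HET replicate 2. In the same order the 5034 calls over all genes were 1026, 1286, 2728, 3263 and 3084. The lower ones were PDIA4 (-0.32, 0.0362), XBP1 (-0.26, 0.0484), SDF2L1 (-0.25, 0.0203) and CRELD2 (-0.35, 0.0238).

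**Figure D4:**
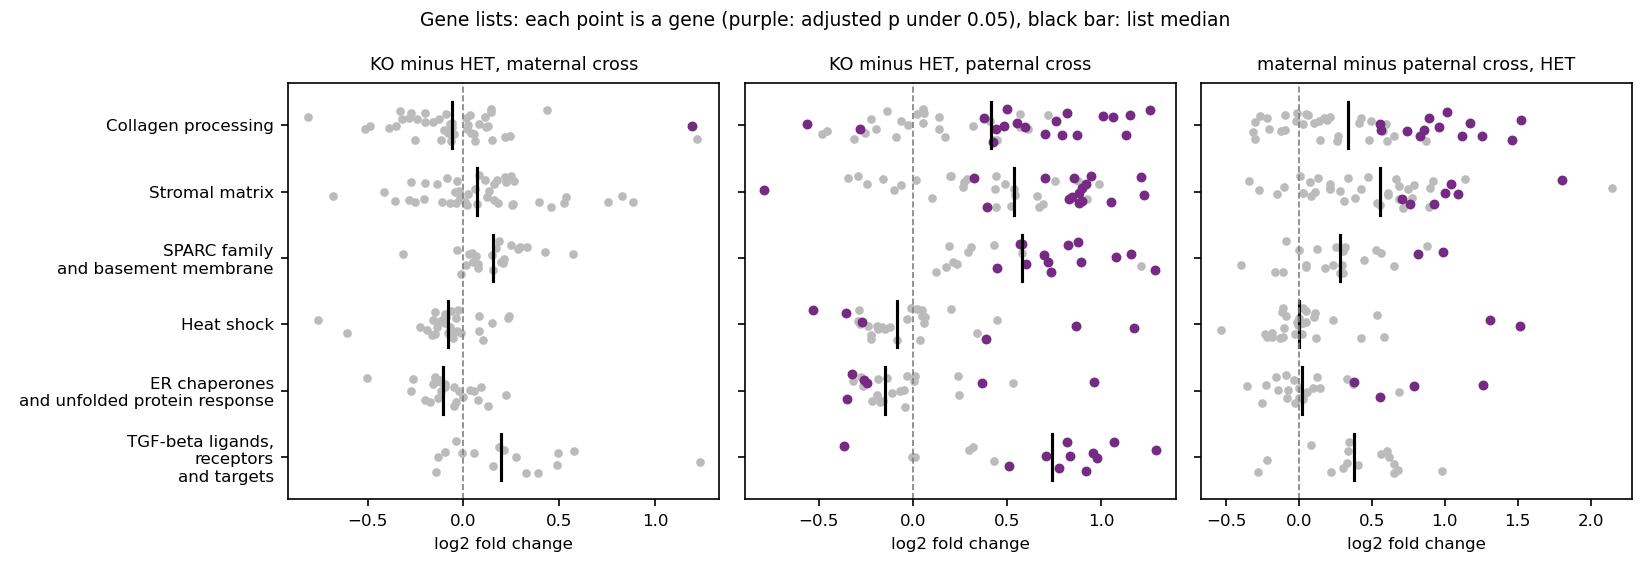
Log2 fold change (x axis) of each tested gene of 6 lists in 3 comparisons, with the list median as a black bar and genes with an edgeR adjusted p under 0.05 in purple. In the paternal cross the medians of the processing, matrix, basement membrane and TGF-beta lists are 0.42 to 0.74, and in the maternal cross all 6 medians lie between -0.11 and 0.20.

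The genes whose log2 CPM resembled serpinh1b most over the 16 libraries were few and low. These r include the maternal-cross HET libraries that stood apart in serpinh1b and are descriptions. Only 3 genes reached an r of 0.90: klc4, a kinesin light chain (r = 0.96), MYO3B, a class III myosin (0.93), and ENSDARG00000079145 (0.90). They were followed by USP53 (0.84) and COLGALT1, a collagen galactosyltransferase (ENSDARG00000058270, 0.83). klc4 ranged from 7.95 to 9.70 CPM in maternal-cross HET, and from 4.93 to 7.72, 5.46 to 6.87 and 4.81 to 6.40 CPM in maternal-cross KO, paternal-cross KO and paternal-cross HET. MYO3B was at 2.92 ± 0.864 CPM in maternal-cross HET and at 0.749 ± 0.832, 0.509 ± 0.141 and 0.405 ± 0.0525 CPM in the same order, on 4 to 90 reads per library. Both genes were named for this likeness, so their high values in maternal-cross HET restate the choice. As deviations from group means, the closest were FADS3 (r = 0.91), ENSDARG00000019772, ENSDARG00000090682, TXNDC9 and BCAR1 (each 0.90 or 0.91), none of them among the 5 above.

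The collagen I sum had many neighbours in pattern, with 168 genes at an r of 0.90 or more over the 16 libraries. The closest were COL5A1, a chain of collagen V that assembles with collagen I (r = 0.96), TMEM204 (0.96), RHOU (0.95), SLIT3 (0.95) and HORMAD1 (0.95). As deviations from group means they were paplna (0.97), RHOU (0.96), col6a4a (0.96), FBXL7 (0.95) and SLIT3 (0.95). COL5A1 stood at 76.2 CPM on average in maternal-cross KO, 67.3 in maternal-cross HET, 74.5 in paternal-cross KO and 42.0 in paternal-cross HET, the same group at the bottom as for the collagen I chains. It was named for its likeness to their sum, so this restates the choice. No gene was among the first 5 of both serpinh1b and the collagen I sum. Lists of 5 out of 21683 genes would seldom share one, so this does not show that the patterns differ.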

How the data were processed

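The authors deposited whole-number counts per Ensembl gene for 16 libraries, with 1 column per library. Per the submitters' processing notes, STAR 2.4.1d, featureCounts 1.4.6 and DESeq2 were used with the build danRer10; the annotation and the strand setting are not given in the sources used here, so overlapping genes and duplicated copies are uncertain. Per the labels, libraries were made with a stranded kit and sequenced together as single reads of 84 cycles. No columns were left out, and no replicate pair agreed within sampling noise (chi-square per degree of freedom 6.46 to 52.6).

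Low counts were filtered with filterByExpr (minimum count 10), leaving 21683 genes. Counts were normalized by TMM and tested with edgeR 4.0.16 in R 4.3.3 (quasi-likelihood, 1 coefficient per group, all 16 libraries), with Benjamini-Hochberg adjustment over all genes tested and a threshold of 0.05. The SE is the absolute log2 fold change over the root of F, and intervals are 1.96 SE on each side. Log2 CPM used a prior count of 2. Correlations used 100000 permutations, two-sided. The procedure was tested on simulated data. Alternatives were DESeq2 1.42.0, other normalizations and filters, fits of the groups compared, a replicate block, a covariate and leaving out each library.

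Symbols come from a names table that matched 26121 of 31953 identifiers, and the symbols of the genes listed were matched exactly or without the copy letter. From each list, the genes named are up to 4 called and up to 2 not called with the highest mean CPM, and likeness names the 5 highest r. DCN, NR2F2, PDGFRB and DDX4 were named after their values were seen. The genes and lists were chosen with earlier results of these data known.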

Additional observations from a re-analysis of the deposited data

Results flagged for a closer look

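Dixon's test was applied to 36 sets of 4 libraries, where chance would give about 1.8 results; 5 were found, and all are high values of 1 library. Paternal-cross HET replicate 1 stood above its group in col1a1a (log2 CPM 7.53), in col1a2 (log2 CPM 7.09) and in the sum of the collagen I chains (489 CPM), which are 3 views of 1 library. Paternal-cross KO replicate 4 stood above its group in serpinh1b (log2 CPM 2.18), and it also had the highest levels of all 4 matrix genes in that group. Maternal-cross KO replicate 4 had 9.40 serpinh1b reads per 1000 collagen I reads, against 2.95 to 4.03 in the other 3 libraries of its group.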

How the results depend on the processing

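serpinh1b was chosen on maternal-cross libraries, so counts that hold it in comparisons with those libraries describe the fits and test nothing. In maternal-cross KO minus HET the count over the 5 genes was 1, which is serpinh1b, and 0 under upper-quartile normalization, in a fit of only the groups compared and with the replicate block. Leaving out each library gave 0 to 1, with 0 in 9 of 16 cases. In paternal-cross KO minus HET the 2 calls became 0 with the replicate block (adjusted p 0.0613 for col1a2 and 0.0542 for sparc), 4 with a covariate for the first axis of variation within groups, and 0 when a log2 fold change of at least 1 was also required; leaving out each library gave 0 to 4. Between HET groups the count was 1 (serpinh1b), and 5 with that covariate, of which 4 are the matrix genes; it was 1 to 3 without single libraries, the highest adding col1a1b and col1a2 without paternal-cross HET replicate 1. For the interaction it was 0, 1 (serpinh1b) with DESeq2 and 2 (serpinh1b and sparc) with the covariate (0 to 1, serpinh1b, without single libraries). Between KO groups 0 were called under every alternative run. The axis was computed from these data, including these genes, and deviations of sparc had r of 0.95 with it. Calls added with the covariate therefore describe the fit only. Under the alternatives that keep all libraries, counts over all genes reached 8485 in paternal-cross KO minus HET, 4618 between HET groups and 2693 for the interaction. The causes of these changes were not tested.

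Signs changed only for values near 0. serpinh1b in maternal-cross minus paternal-cross KO was -0.0061 with upper-quartile normalization, -0.13 with the replicate block and -0.13 with the covariate, and -0.87 to 0.31 without single libraries. There col1a1b ranged from -0.028 to 0.35 and sparc from -0.26 to 0.12, and in maternal-cross KO minus HET col1a1b ranged from -0.045 to 0.28 and sparc from -0.030 to 0.40. Replicate numbers did not pair the libraries, since in no comparison did all 4 same-numbered pairs have deviations with r over 0.1, and the block is given only here.

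Counts over all genes depended on the fit: the main count and the range over the alternatives that keep all libraries were 43 and 4 to 538 (maternal-cross KO minus HET), 5034 and 1262 to 8485 (paternal-cross KO minus HET), 344 and 134 to 1695 (KO groups), 851 and 193 to 4618 (HET groups) and 41 and 13 to 2693 (interaction). Without single libraries they ranged, in the same order, from 19 to 131, 1026 to 6084, 109 to 495, 146 to 1991 and 14 to 181. In paternal-cross KO minus HET the list counts ranged from 5 to 27 for processing, 3 to 26 for matrix, 3 to 16 for basement membrane, 1 to 13 for heat shock, 0 to 11 for endoplasmic reticulum and 2 to 12 for TGF-beta genes, against 19, 16, 13, 6, 6 and 11. Between HET groups they ranged from 5 to 20, 1 to 23, 0 to 7, 0 to 6, 1 to 7 and 0 to 9, against 13, 7, 2, 2, 4 and 0. The interaction counts reached 15, 13, 7, 3, 1 and 4 with the covariate. Depth limits serpinh1b most, with 26 reads in its lowest library.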

Other observations

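The genes near serpinh1b in the RefSeq order of protein-coding genes in the assembly GRCz12tu were looked at after its values were known. The 3 matched to a tested gene on one side are its 3 neighbours there, gucy2f, tsku and si:dkey-52l18.4. On the other side the first 3 genes were not analysed here, and hspa13, samsn1a and si:ch211-207n23.2 come after them. In maternal-cross KO minus HET all 6 were between -0.16 and 0.69 on the log2 scale, with edgeR adjusted p of 0.464 to 0.996. Between the HET groups si:dkey-52l18.4 was at -0.45 (adjusted p = 0.0257), tsku at 0.38 (0.223), gucy2f at 0.23 (0.253), hspa13 at 0.32 (0.049), samsn1a at 0.70 (0.146) and si:ch211-207n23.2, the lowest at 0.351 to 1.43 CPM on average, at 1.96 (0.129).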
